A study of Mus musculus with 4 samples.

Results

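Alcohol dehydrogenases and aldehyde dehydrogenases were examined as 10 genes, Adh1, Adh4, Adh5, Aldh2, Aldh1b1, Aldh1a1, Aldh1a7, Aldh8a1, Aldh3a2 and Aldh7a1. They were taken by name from the 21878 rows of the gene tables, as enzymes of ethanol, retinal and lipid aldehydes. All 10 were found, and all 10 were among the 13428 genes with enough reads to be tested. Adh1 and Aldh1a7 rose by 1.79-fold and 1.97-fold in HACY libraries relative to CCL4 libraries. The other 8 members did not pass the test, and the most abundant one, Aldh2, had nearly the same mean level in both groups.

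The enzymes act in sequence. Alcohol dehydrogenases, zinc enzymes of the cytosol, oxidise ethanol, retinol and related alcohols to aldehydes, and aldehyde dehydrogenases oxidise the aldehydes to acids with NAD or NADP as the acceptor. In liver, the organ that clears most dietary ethanol, this pair of steps turns ethanol into acetate by way of acetaldehyde, and turns retinol into retinoic acid by way of retinal. Other aldehyde dehydrogenases remove fatty aldehydes and the semialdehydes of amino acid breakdown.

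RNA came from C57BL/6 liver cells that magnetic sorting (MACS) had enriched for CD24, a surface protein, and that were labelled as hepatocytes and as liver progenitor cells. The groups were HACY with 2 libraries and CCL4 with 2 libraries, and no untreated or vehicle group was analysed here. CCL4 mice had carbon tetrachloride, a liver toxin, in olive oil at 2 ml/kg into the peritoneum, 2 times a week over 6 weeks from an age of 8 weeks. HACY mice had a cocktail of Y-27632, A-83-01 and CHIR99021, which inhibit ROCK, TGF-beta type I receptor and GSK-3 kinases. It was given 3 times a week over 6 weeks, also from an age of 8 weeks. The age is also given as 6 to 8 weeks, and whether HACY mice had carbon tetrachloride as well is not clear from the labels. Nothing in the labels ties a library to its own mouse. The p-values therefore reflect the spread among these 4 samples only, and that spread may be technical.

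Library totals ran from 18467299 to 19314219 counts. Values in CPM are counts scaled to the library total after TMM, which sets libraries to a common level over most genes. A call is an edgeR adjusted p below 0.05 over all genes tested, and 11.7% of the genes tested were called, with 8.19% higher and 3.54% lower in HACY. Fold changes are HACY over CCL4. Scaling moved that split from 1100 higher and 476 lower to 856 and 1355 when only library size was used, and shifted the median log2 fold change of all genes tested from -0.01 to -0.18.

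The label of the cells was checked on marker genes. Of 10 hepatocyte markers 9 were in the tables, and their summed level was 30495 and 38266 CPM in HACY and 9787 and 8392 CPM in CCL4. Most of that sum was Alb, with 24005 and 30358 CPM in HACY and 6971 and 5497 CPM in CCL4. Lowest of the 9 was Cps1, with 7.03 to 35.1 CPM, and none was at 0 in all libraries. Markers of other liver cells were present too. Summed macrophage markers (8 genes) ran from 738 to 2409 CPM, cholangiocyte markers (6 genes) from 1133 to 4208 CPM, and endothelial markers (6 genes) from 385 to 1175 CPM. The cholangiocyte sum was nearly all Spp1, with 1083 to 4120 CPM, while Sox9 had 32.0 to 56.0 CPM and Epcam 2.63 to 6.06 CPM. The 5 T and NK cell markers summed to at most 0.874 CPM in any library. In these bulk libraries, fewer cells of a type and less RNA per cell cannot be told apart.

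**Figure D1:**
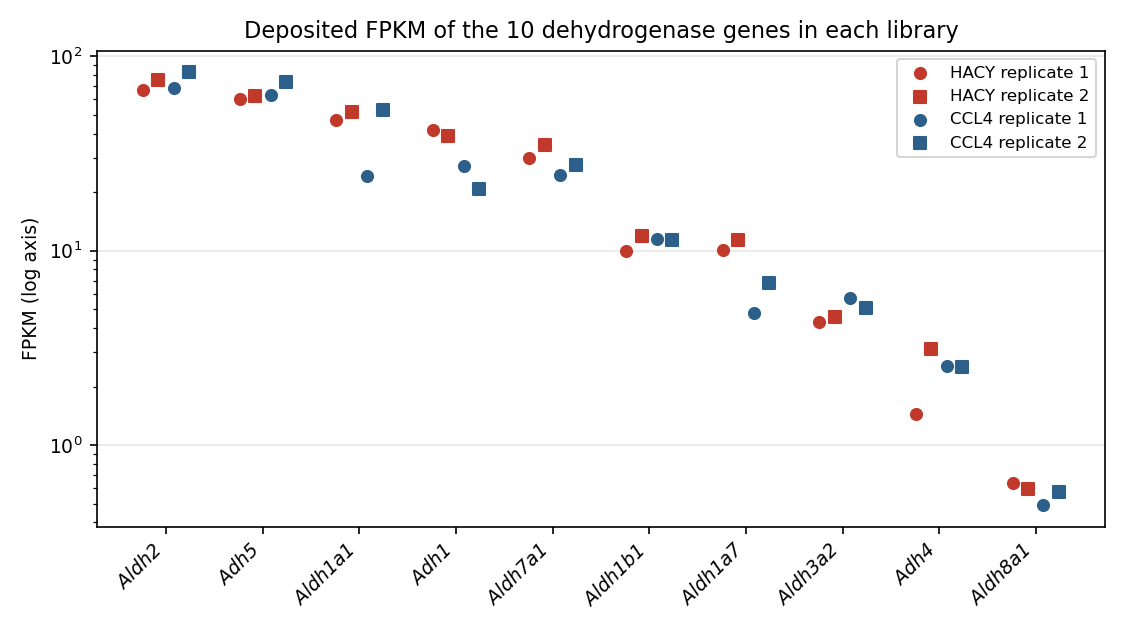
Deposited FPKM (log axis) of the 10 dehydrogenase genes, ordered by their mean over 4 libraries, with 1 point per library (red HACY, blue CCL4; circle replicate 1, square replicate 2). Aldh2 and Adh5 lie highest with mixed groups, Adh1 and Aldh1a7 have both HACY points above both CCL4 points, and Aldh1a1 has 1 low point, CCL4 replicate 1.

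Levels of different genes were compared on FPKM, which is scaled to transcript length. Aldh2, the mitochondrial enzyme that removes most acetaldehyde, was highest with a mean of 73.2 FPKM over the 4 libraries (range 66.8 to 82.5). Adh5 followed with 64.9 FPKM (60.4 to 73.7), and the ranges of these neighbours overlapped. Aldh1a1 had 43.8 FPKM (24.3 to 52.6), Adh1 32.2 (20.8 to 41.9) and Aldh7a1 29.2 (24.4 to 34.9), and these ranges overlapped from each gene to the next. All of them lay above Aldh1b1 (mean 11.2 FPKM), whose range overlapped that of Aldh1a7 (8.26). The Aldh1a7 range in turn overlapped that of Aldh3a2 (4.91). Adh4 (2.40 FPKM) and Aldh8a1 (0.575 FPKM) were lowest, and their ranges were apart from each other and from Aldh3a2.

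The middle of this order depended on the length used. For Adh1 the count, FPKM and library total together imply a length of 1.43 kb, close to the 1.49 kb of its longest GENCODE transcript. For Aldh2 the implied length was 6.65 kb against 3.87 kb, for Adh5 1.69 kb against 3.73 kb and for Aldh3a2 11.0 kb against 3.09 kb. With CPM per kb of the longest transcript, Adh5 moved from rank 2 to rank 5 and Aldh3a2 from rank 8 to rank 6. Aldh2 was 1.13 times Adh5 by FPKM and 4.29 times Adh5 by CPM per kb. Aldh2 stayed at rank 1, Adh4 at rank 9 and Aldh8a1 at rank 10 by both measures.

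Among the alcohol dehydrogenases, Adh1 rose and Adh4 and Adh5 did not pass the test. Adh1 encodes the class I enzyme, the main ethanol and retinol oxidising alcohol dehydrogenase of hepatocytes. It lies on chromosome 3 (138260991 to 138290698, plus strand, GRCm38), in a block of 6 alcohol dehydrogenase genes that spans 238 kb in the order Adh7, Adh1, Adh6a, Adh6b, Adh4, Adh5. HACY replicates 1 and 2 had 61.2 and 57.7 CPM, and CCL4 replicates 1 and 2 had 37.2 and 29.0 CPM. Both HACY libraries lay above both CCL4 libraries. The means were 59.4 ± 2.52 and 33.1 ± 5.79 CPM (SD, n = 2), a log2 fold change of 0.84 (SE 0.17, edgeR adjusted p = 0.0228). Leaving out HACY replicate 1 ended the call (0.79, adjusted p = 0.118), as did leaving out HACY replicate 2 (0.89, adjusted p = 0.0698). An antisense gene, Gm16559, overlaps Adh1 on the other strand, and the strand setting of the counting is not given in the sources used here.

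The promoter of Adh1 is shown because Adh1 is 1 of the 2 called members. The sequence is RefSeq's, GRCm38.p6, chr3:138277335-138277584, plus strand, the 250 bases before the start site. Capitals mark TTGCAAT, a site bound by C/EBP factors, 40 bases before the start.
Adh1: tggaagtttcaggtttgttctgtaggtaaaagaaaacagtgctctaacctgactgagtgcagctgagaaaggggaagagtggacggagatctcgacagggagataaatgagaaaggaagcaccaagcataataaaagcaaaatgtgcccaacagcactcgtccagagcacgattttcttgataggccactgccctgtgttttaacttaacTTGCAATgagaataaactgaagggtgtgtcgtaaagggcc
TTGCAAT occurred on either strand in 2.22% of 32851 promoters of 300 bases, and in 1 of the 8 member promoters searched. Aldh2 had no promoter entry and Aldh7a1 was left out by name, so neither was searched. These windows hold the 250 bases before and 50 after a start site. A match is a description of the letters and shows no binding.

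Adh5 encodes the class III enzyme, found in nearly all tissues, which oxidises the glutathione adduct of formaldehyde and reduces S-nitrosoglutathione. It lies at the far end of the same block (chromosome 3, 138443093 to 138455499). It had 103 and 111 CPM in HACY and 104 and 119 CPM in CCL4, so the groups overlapped (log2 -0.06, SE 0.13, edgeR adjusted p = 0.801). Adh4, the class II enzyme of liver (chromosome 3, 138415466 to 138430892), was low, with 42 and 92 counts in HACY and 80 and 79 counts in CCL4. HACY replicate 1 was the lowest and HACY replicate 2 the highest of the 4 libraries, at 2.29 and 5.22 CPM against 4.04 and 3.89 CPM (log2 -0.08, SE 0.43, adjusted p = 0.925). Its direction rested on 1 library, with 0.39 when HACY replicate 1 was left out and -0.79 when HACY replicate 2 was.

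The 3 genes share between 63.3% and 66.1% of aligned coding bases, and no run of over 16 bases is identical between any pair of them. Within a library, Adh1 stood at 0.695 and 0.625 of the FPKM of Adh5 in HACY and at 0.430 and 0.282 in CCL4. This ratio was therefore higher in both HACY libraries, while Adh5 itself overlapped between the groups. Its size depended on the length used. By CPM per kb of the longest transcript, Adh1 was above Adh5 in HACY (41.0 against 27.7 and 38.6 against 29.7). By the same measure it was below Adh5 in CCL4 (24.9 against 27.9 and 19.5 against 32.0).

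**Figure D2:**
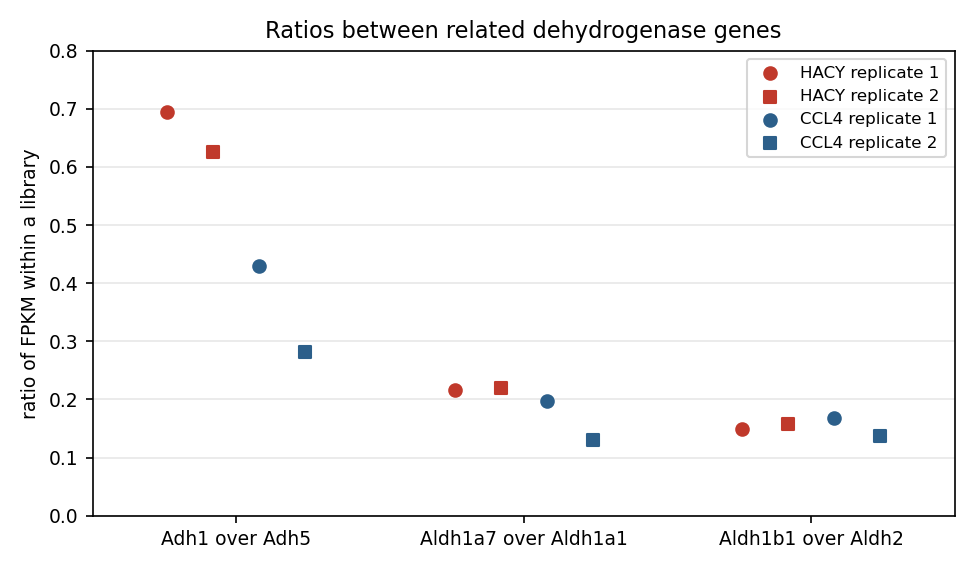
Ratio of FPKM within each library for 3 pairs of related genes, with 1 point per library (red HACY, blue CCL4; circle replicate 1, square replicate 2). Adh1 over Adh5 has both HACY points above both CCL4 points, Aldh1a7 over Aldh1a1 is lowest in CCL4 replicate 2 at 0.130, and Aldh1b1 over Aldh2 has mixed groups.

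The acetaldehyde enzymes did not pass the test. Aldh2 (chromosome 5, 121566027 to 121593824, minus strand) is the low-Km enzyme of the mitochondrial matrix, whose inactive human allele causes facial flushing after alcohol. A predicted gene, Gm42879, overlaps it on the other strand. It had 454 and 528 CPM in HACY and 442 and 524 CPM in CCL4. In each group replicate 2 was higher than replicate 1, and the groups overlapped almost entirely (log2 0.02, SE 0.14, edgeR adjusted p = 0.932). As a share of reads, not scaled to length, Aldh2 alone gave 47.9% and 48.7% of the counts of the 10 genes in HACY and 52.7% and 52.9% in CCL4. Aldh1b1 (chromosome 4, 45799022 to 45804604, plus strand), a second mitochondrial enzyme with a lower affinity for acetaldehyde, had 29.9 and 36.3 CPM in HACY and 32.5 and 32.4 CPM in CCL4. Both CCL4 libraries fell between the HACY libraries (log2 0.03, SE 0.17, adjusted p = 0.935). Within a library Aldh1b1 had between 0.138 and 0.168 of the FPKM of Aldh2. The sign of both fold changes turned negative by library size alone, upper-quartile scaling or FPKM.

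Among 10701 genes averaging 5 CPM or more, the nearest to Aldh2 across the 4 libraries were Tpra1, Tufm and Aaed1. Their log2 CPM, centred by gene, differed from that of Aldh2 by a root mean square of 0.0062, 0.0086 and 0.014. With 4 libraries such closeness is only a description. Tufm, a mitochondrial translation elongation factor, had 134 and 154 CPM in HACY and 130 and 152 CPM in CCL4.

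For the retinal enzymes, Aldh1a7 rose, and its close relative Aldh1a1 did not pass the test. Aldh1a1 encodes a cytosolic retinaldehyde dehydrogenase that makes retinoic acid and is much used as a marker of stem and progenitor cells. Aldh1a7 is a rodent copy of it, with little activity on retinal. HACY replicates 1 and 2 had 23.9 and 27.1 CPM of Aldh1a7, and CCL4 replicates 1 and 2 had 10.4 and 15.4 CPM. Both HACY libraries were above both CCL4 libraries. The means were 25.5 ± 2.27 and 12.9 ± 3.54 CPM (SD, n = 2), a log2 fold change of 0.98 (SE 0.24, edgeR adjusted p = 0.0397). Leaving out HACY replicate 1 (1.06, adjusted p = 0.0922), HACY replicate 2 (0.89, 0.171) or CCL4 replicate 1 (0.73, 0.0605) ended the call, as did upper-quartile scaling (0.92, 0.0540).

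Aldh1a1 had 96.5 and 110.7 CPM in HACY, 48.2 CPM in CCL4 replicate 1 and 100.4 CPM in CCL4 replicate 2. CCL4 replicate 2 lay between the HACY libraries, and CCL4 replicate 1 lay below all 3. The difference was 0.48 on the log2 scale (SE 0.31, edgeR adjusted p = 0.339). It was 1.10 without CCL4 replicate 2 (adjusted p = 0.00612) and 0.05 without CCL4 replicate 1 (adjusted p = 0.841), so 1 CCL4 library decided the value. CCL4 replicate 1 was also lower than CCL4 replicate 2 in the summed markers of stellate cells and fibroblasts (258 against 465 CPM), endothelium (385 against 653) and cholangiocytes (1133 against 2177). HACY ran from 375 to 422, from 894 to 1175 and from 2918 to 4208 CPM for these lists. Of their tested members 0 of 7, 2 of 6 and 1 of 6 were called higher, and 1 endothelial gene lower. Between CCL4 replicates 1 and 2, the cholangiocyte gap was nearly all Spp1 (1083 against 2108 CPM). Krt7 (3.59 against 10.4), Krt19 (7.33 against 20.8) and Epcam (2.63 against 4.73) of that list were also lower in CCL4 replicate 1. Sox9 (35.1 against 32.0) and Cftr (0.657 against 0.493) were higher in it. Much of the stellate and fibroblast gap was Col1a1 (67.1 against 193 CPM), while Dcn was nearly equal (99.4 against 104). Des (10.1 against 25.7), Pdgfrb (14.7 against 30.8) and Pdgfra (30.9 against 56.6) of that list were also lower in CCL4 replicate 1. So were Reln and Hgf. Lrat, the retinol esterifying enzyme that defines stellate cells, had at most 0.437 CPM and was at 0 in CCL4 replicate 1. Neutrophil markers (6 genes) were likewise lower in CCL4 replicate 1, at 32.1 CPM against 227 CPM in CCL4 replicate 2. In HACY they were below both, at 25.3 and 28.1 CPM, and 1 of the 5 tested was called lower. The part of these cells in the Aldh1a1 difference was not tested.

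Aldh1a1 (20492715 to 20643465, plus strand) and Aldh1a7 (20692953 to 20727562, minus strand) are neighbours on chromosome 19, 49.5 kb apart and facing each other. Their coding sequences are both 1503 bases long and identical at 91.6% of bases. The longest identical run is 100 bases, and 10.4% of 50-base windows of the Aldh1a1 coding sequence occur unchanged in Aldh1a7. Read pairs that lie wholly within such stretches cannot be assigned to 1 gene, so the counts of both may depend on how such reads were treated. No other pair of members shared a 50-base window. C730002L08Rik and a pseudogene, Gm6684, overlap Aldh1a1 on the other strand.

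Parts of the promoters of this pair are near copies too, while 1 gene of the pair was called and the other was not. The difference between their changes was not tested. The 250 bases before the start site of each gene are therefore shown. They are RefSeq's, GRCm38.p6, chr19:20601718-20601967 on the plus strand for Aldh1a1, which has an earlier start as well, and chr19:20727557-20727806 on the minus strand for Aldh1a7. Capitals mark runs of at least 10 bases that are identical in the alignment of both.
Aldh1a1: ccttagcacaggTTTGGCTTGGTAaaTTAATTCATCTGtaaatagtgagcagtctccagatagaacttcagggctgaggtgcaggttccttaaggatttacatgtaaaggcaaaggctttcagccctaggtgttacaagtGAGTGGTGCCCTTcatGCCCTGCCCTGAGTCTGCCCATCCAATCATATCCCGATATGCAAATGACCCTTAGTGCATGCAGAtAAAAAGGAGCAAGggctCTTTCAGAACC
Aldh1a7: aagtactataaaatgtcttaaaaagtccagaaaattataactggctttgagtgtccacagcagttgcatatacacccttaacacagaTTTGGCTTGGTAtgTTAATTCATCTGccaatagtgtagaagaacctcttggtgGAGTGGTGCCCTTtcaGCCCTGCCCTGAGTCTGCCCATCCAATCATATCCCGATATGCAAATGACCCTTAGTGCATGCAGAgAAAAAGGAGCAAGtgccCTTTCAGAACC
Of the 250 bases only 175 aligned, and 158 of these were identical (90.3%), with a longest run of 65 bases. That run holds CCAAT, the CCAAT box, 72 bases before the start and ATGCAAAT, the octamer, 56 bases before it in both genes. The octamer also occurs 58 bases before the start of Aldh8a1, which makes 3 of 8 member promoters against 1.74% of all promoters. CCAAT occurs in 5 of 8 against 37.4%. The motifs were chosen after the sequences were seen.

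Each of the other motifs occurred in at most 2 of the 8 promoters, on either strand. GTTAAT, part of the HNF1 site, occurred in 1 (7.10% of all promoters), AGGTCA, the nuclear receptor hexamer, in 1 (16.3%, at 2 places in Adh4), and TATAAA in 1 (13.6%). GCGTG, the core of the AHR site, occurred in 2 (32.4%) and CACGTG, the E box, in 2 (7.15%), among them Adh1 just after its start. TTGCNNAA (10.8%) and TGACNNNGC, an antioxidant response core (12.4%), were not found in these windows. The letters of CACGTG and GCGTG do not overlap in Aldh3a2, the gene that holds both.

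Aldh8a1 (chromosome 10, 21377291 to 21396585, plus strand) encodes an enzyme of the kynurenine route of tryptophan that also oxidises retinal. It had 44 and 42 counts in HACY and 37 and 44 counts in CCL4, or 2.40 and 2.38 CPM against 1.87 and 2.17 CPM. The groups did not overlap, and the difference did not pass the test (log2 0.24, SE 0.37, edgeR adjusted p = 0.710).

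Neither enzyme of lipid and amino acid aldehydes passed the test. Aldh3a2 (chromosome 11, 61223417 to 61267464, minus strand), the fatty aldehyde dehydrogenase of the endoplasmic reticulum, is the gene mutated in Sjögren-Larsson syndrome. It had 50.1 and 54.0 CPM in HACY and 60.2 and 51.8 CPM in CCL4, and the groups overlapped (log2 -0.10, SE 0.15, edgeR adjusted p = 0.679). Aldh7a1 (chromosome 18, 56509687 to 56572951, minus strand), also called antiquitin, oxidises the semialdehyde of lysine breakdown and is the gene of pyridoxine-dependent epilepsy. HACY replicates 1 and 2 had 125 and 152 CPM and CCL4 replicates 1 and 2 had 99.0 and 112 CPM. The groups did not overlap, but the difference missed the threshold (log2 0.39, SE 0.15, unadjusted p = 0.0316, edgeR adjusted p = 0.127). It ranged from 0.21 to 0.52 over the alternatives and passed in none of 13. Phax, a protein-coding gene, overlaps Aldh7a1 on the other strand.

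**Figure D3:**
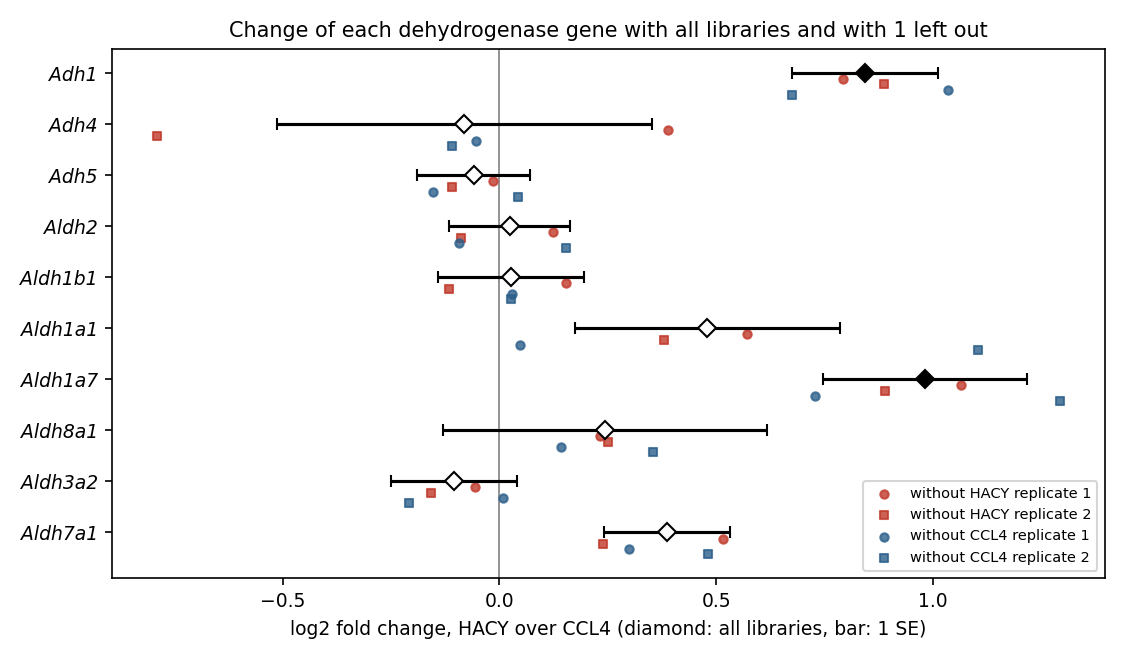
Log2 fold change, HACY over CCL4, of each gene with all libraries (diamond, filled where the edgeR adjusted p was below 0.05, with a bar of 1 SE) and with 1 library left out (small points, colour and shape by the library left out). Adh1 and Aldh1a7 are filled, and the points of Aldh1a1 spread from 0.05 to 1.10 with the CCL4 library left out.

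Over the 10 genes, 2 were called higher and 0 lower, beside 11.7% of all genes tested. DESeq2 also called 2 higher and 0 lower, beside 10.2% and 5.6% of the genes it tested. At an unadjusted edgeR p below 0.05 there were 3 higher and 0 lower, with Aldh7a1 added to the called genes. The share of all genes tested at that level was not counted, so these 3 cannot be read as many or few. Members called higher numbered 0 with HACY replicate 1 left out and 0 with HACY replicate 2 left out, where 3.85% and 4.86% of all genes were called higher. They numbered 1 with CCL4 replicate 1 left out (6.47% of all genes), 3 with CCL4 replicate 2 left out (13.4%) and 1 with upper-quartile scaling (6.89%). Of the 10 fold changes 7 were above 0, as were 49.1% of those of all genes. In 4 of the 10 genes (Adh1, Aldh1a7, Aldh7a1 and Aldh8a1) both HACY libraries lay above both CCL4 libraries, and in 0 both lay below. Among all genes tested the groups were apart in this way for 30.7% and 30.1%, or 60.8% in either direction. The median log2 fold change of the 10 genes was 0.14, beside -0.01 for all genes tested. Together they took 0.0906% and 0.101% of the counts in HACY and 0.0899% and 0.104% in CCL4, so their summed share overlapped between the groups.

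Hepatocyte and macrophage markers had larger median fold changes than any of the 10 genes. Of 9 hepatocyte markers 7 were called higher and 0 lower, with a median log2 fold change of 1.88, against 0.84 for Adh1 and 0.98 for Aldh1a7. The sums were 30495 to 38266 CPM in HACY and 8392 to 9787 CPM in CCL4. Of 8 macrophage markers 8 were called higher (median 1.74), with sums of 1755 to 2409 CPM in HACY and 738 to 776 CPM in CCL4, and none was at 0. The part of either cell type in the rises of Adh1 and Aldh1a7 was not tested.

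Genes of the surrounding pathways were taken from 6 lists of 80 genes, of which 70 were tested. Of these, 13 were called higher and 1 lower, beside 8.19% and 3.54% of all genes tested. The 13 became 4 when HACY replicate 1 or HACY replicate 2 was left out, and 20 when CCL4 replicate 2 was.

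**Figure D4:**
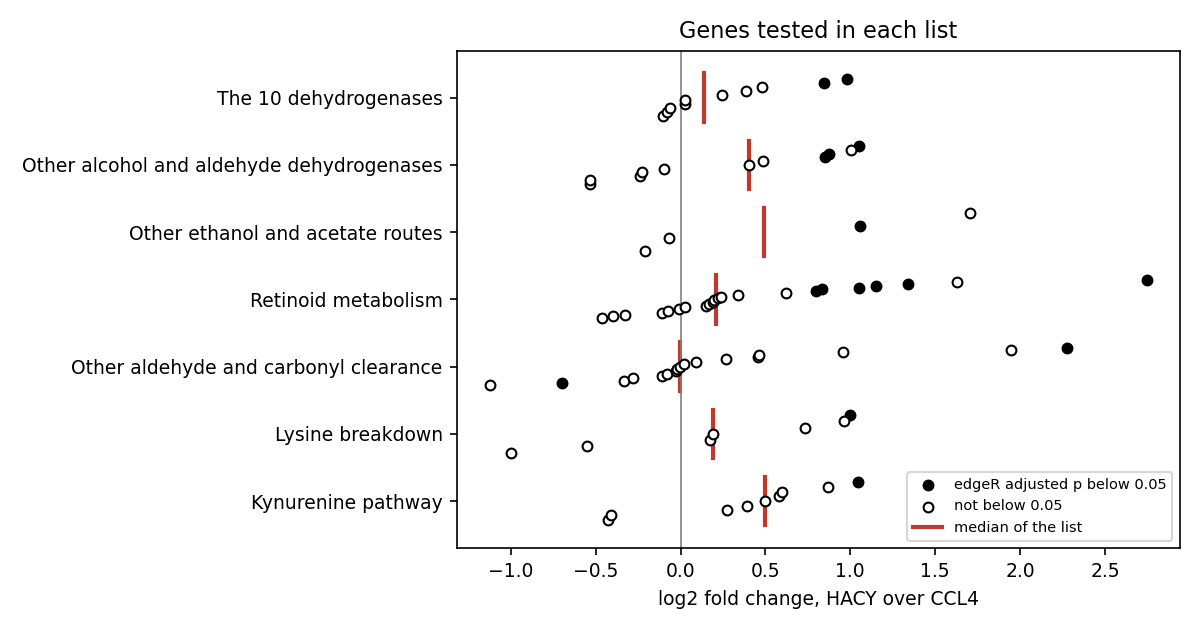
Log2 fold change, HACY over CCL4, of every tested gene of the 10 dehydrogenases and of the 6 pathway lists, with 1 point per gene (filled where the edgeR adjusted p was below 0.05) and a red line at the median of each list. The retinoid list holds 6 filled points, all to the right of 0, and the only filled point to the left of 0 is Ptgr1.

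Of 17 further alcohol and aldehyde dehydrogenases 11 were tested, 3 were called higher and 0 lower (1 lower at an unadjusted p below 0.05), and the median was 0.41. Aldh1l1, the cytosolic enzyme that oxidises formyl-tetrahydrofolate, had 88.1 and 128.8 CPM in HACY and 45.3 and 59.4 CPM in CCL4 (log2 1.05, SE 0.22, edgeR adjusted p = 0.0249). Aldh6a1, which acts on methylmalonate semialdehyde in valine breakdown, rose by 0.87 (SE 0.19), and Aldh3b1, an enzyme of lipid aldehydes, by 0.85 (SE 0.20). Adhfe1, a hydroxyacid transhydrogenase, had 1.00 (SE 0.28, adjusted p = 0.0616). Adh6a was at 0 in all libraries. For such a 0, 3 counts (0.148 to 0.170 CPM) were set as an approximate upper limit, which covers counting error only. Adh7, the class IV enzyme of stomach, had 5 to 10 counts. Aldh1l1 was not called with HACY replicate 2 (adjusted p = 0.10) or CCL4 replicate 1 (0.0682) left out. Aldh6a1 and Aldh3b1 were not called without HACY replicate 1 (0.103 and 0.202), HACY replicate 2 (0.231 and 0.0944) or CCL4 replicate 1 (0.0530 and 0.0596). On log2(FPKM + 1) with limma, Aldh1l1 (adjusted p = 0.0515) and Aldh6a1 (0.0501) missed the threshold, and with library size alone Aldh3b1 did (0.0532). Rises in this list numbered 1 with FPKM, and 6 when CCL4 replicate 2 was left out.

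Beside the dehydrogenases, ethanol is oxidised by the cytochrome Cyp2e1 and by catalase, and acetate is activated by acetyl-CoA synthetases. Cyp2e1 rose, with 53.1 and 68.9 CPM in HACY and 32.8 and 25.9 CPM in CCL4 (log2 1.05, SE 0.19, edgeR adjusted p = 0.0176). It missed the threshold when HACY replicate 2 was left out (adjusted p = 0.0892). Cat, catalase, had 326 and 362 CPM in HACY and 362 and 358 CPM in CCL4 (log2 -0.07, SE 0.12, adjusted p = 0.753). Of the synthetases, Acss1 had 1.70 (SE 0.54, adjusted p = 0.0858) from 7 to 36 counts, Acss2 had -0.21 (SE 0.29, 0.677), and Acss3 had 1 count in all and was not tested.

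In the retinoid list 22 of 25 genes were tested, 6 were called higher and 0 lower (1 lower at an unadjusted p below 0.05), with a median of 0.21. The rises with the smallest p were in retinol dehydrogenases of the short-chain family and in a receptor. Rdh7 had 24.1 and 21.8 CPM in HACY and 10.1 and 8.13 CPM in CCL4 (log2 1.34, SE 0.21, edgeR adjusted p = 0.0101). Dhrs9 rose by 1.15 (SE 0.19), Rdh10, which makes retinal in many tissues, by 0.83 (SE 0.15), and Stra6l, a liver receptor for retinol binding protein, by 1.05 (SE 0.18). Rdh9, another retinol dehydrogenase, and Bco1, which cleaves beta-carotene to retinal, also rose, by 2.75 and 0.80, Rdh9 from 8 and 5 counts in CCL4. Rbp4, the plasma carrier of retinol, had 0.19 (adjusted p = 0.411), and Cyp26a1, a retinoic acid degrading enzyme induced by retinoic acid, had -0.07 (0.767). These 4 genes were named after their values were seen. Rises in the list numbered 1 when HACY replicate 1 was left out and 3 when HACY replicate 2 was. Leaving out HACY replicate 1 ended the calls of Rdh7, Dhrs9 and Rdh10 (adjusted p = 0.0503, 0.0620 and 0.0527), and leaving out HACY replicate 2 ended those of Stra6l and Rdh10 (0.0843 and 0.129).

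Other enzymes that clear aldehydes and ketones had 1 rise and 1 fall among 17 tested, with a median of -0.01. Akr1c6, a hydroxysteroid dehydrogenase of the aldo-keto reductase family, had 18.5 and 15.7 CPM in HACY and 3.49 and 3.55 CPM in CCL4 (log2 2.28, SE 0.24, edgeR adjusted p = 0.00276). It was called under all 13 alternatives. Ptgr1, which reduces enones made by lipid peroxidation, had 26.3 and 26.6 CPM in HACY and 37.8 and 48.0 CPM in CCL4 (log2 -0.70, SE 0.18, adjusted p = 0.0458). Ptgr1 was no longer called without HACY replicate 1 (adjusted p = 0.218), HACY replicate 2 (0.208) or CCL4 replicate 2 (0.0571), and with limma-voom (0.0567). Akr1b8 and Akr1b7, aldose reductase relatives, had 0.46 (SE 0.13, adjusted p = 0.0654) and 1.95 (SE 0.64, 0.0930).

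The routes that feed Aldh7a1 and Aldh8a1 held 1 rise each. Of 7 lysine breakdown genes Pipox, which oxidises pipecolic acid to the substrate of Aldh7a1, had 21.6 and 26.6 CPM in HACY and 12.6 and 11.5 CPM in CCL4 (log2 1.00, SE 0.20, edgeR adjusted p = 0.0231). In the same list Dhtkd1, a subunit of the dehydrogenase complex of a later step, had -0.997 (SE 0.32, adjusted p = 0.0910), and was called with library size alone (0.0458) and without CCL4 replicate 2 (0.0361). Aadat, an aminotransferase of the route, and Aass, its entry enzyme, had 0.96 and 0.73 (0.134 and 0.218). The median of the list was 0.19. Of 9 kynurenine genes Kmo, the hydroxylase of kynurenine, had 12.6 and 11.2 CPM in HACY and 5.97 and 5.57 CPM in CCL4 (log2 1.05, SE 0.24, adjusted p = 0.0353). Haao, Qprt and Tdo2 had 0.87, -0.43 and 0.59 and did not pass (adjusted p = 0.0870, 0.249 and 0.283), and the median was 0.50. Neither Pipox nor Kmo was called when HACY replicate 1 (adjusted p = 0.0547 and 0.258) or HACY replicate 2 (0.176 and 0.138) was left out.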

How the data were processed

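Each of the 4 libraries, made from total RNA with a stranded paired-end mRNA kit, has its own table by gene symbol. The deposited count column holds whole, unscaled read counts, per the file headers. A second deposited column gives FPKM, which the authors computed. Trimmomatic, HISAT2, Cufflinks, HTSeq, DESeq and the build mm10 are named, per the submitters' processing notes, without versions or roles. The annotation is not given in the sources used here.

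The main test was edgeR 4.0.16 under R 4.3.3 (filterByExpr with minimum count 10 and minimum total 15, TMM scaling, robust quasi-likelihood fit, treatment as the only term, two-sided). Benjamini-Hochberg adjustment ran over 13428 genes. Standard errors are approximate: the size of a log2 fold change over the root of its F statistic. The biological coefficient of variation was 16.5%. The test was checked on counts drawn with 200 genes changed: among 13290 genes, 12.2% of the 1.5-fold changes were recovered, but 69.4% at 2-fold, 94% at 4-fold and 98.0% at 8-fold, with 9 false calls of 144. Replicates differed by more than sampling noise (chi-square per degree of freedom 19.6 for HACY, 35.6 for CCL4). Intervals and floors cover counting error only.

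Locations came from GENCODE M21 (GRCm38, the assembly of mm10) and promoters from RefSeq, of which 8 members' entries were used. Coding sequences were aligned with Biopython 1.88. The alternatives changed the scaling (RLE, upper-quartile, library size), the tool (DESeq2 1.42.0, and limma 3.58.1 as limma-voom or on log2(FPKM + 1) of genes with a mean FPKM of at least 1) or the filter (none, or a minimum count of 50), added a replicate block, or left out 1 library. The rule for named genes took the 10 members, up to 4 genes of each list by smallest p, the ethanol list in full and 3 genes nearest to the most abundant member. Outside it, Rdh9, Bco1, Rbp4, Cyp26a1, Adh6a, Adh7 and Lrat were named after their values were seen. Members and lists were chosen with earlier results of these data known.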

Additional observations from a re-analysis of the deposited data

How the results depend on the processing

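Of 128 values of the 10 genes under the alternatives, 109 kept their direction and side of the threshold, 6 kept the direction but were no longer called, 1 was newly called and 12 changed sign. No called gene changed sign. Sign changes among members were in Aldh2 (-0.038 with upper-quartile scaling, -0.15 by library size, -0.084 with FPKM, -0.093 to 0.15 with 1 library left out), Aldh1b1 (-0.034, -0.15 and -0.065 by those 3 scales, -0.12 to 0.15 with 1 left out), Adh4 (-0.79 to 0.39 with 1 left out), Adh5 (-0.15 to 0.044) and Aldh3a2 (-0.21 to 0.0089). Of the list genes, Cat ranged from -0.14 to 0.0025 and Acss2 from -0.49 to 0.15 in the same way. Members called higher were 2, and 1 with upper-quartile scaling. With 1 library left out, members called higher ranged from 0 to 3, all calls from 629 to 3047, higher calls from 530 to 1840, lower calls from 99 to 1207, list genes higher from 4 to 20 and list genes lower from 0 to 2. Higher calls were 640 with FPKM, lower calls 1355 by library size and 738 with DESeq2, against 1100 and 476. List genes lower were 1, with 4 by library size and 0 with limma-voom. Aldh2 over Adh5 was 1.13 by FPKM and 4.29 by CPM per kb. For these reversals and lost calls the cause was not tested.

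The labels state no pairing by replicate number, and deviations of same-numbered libraries correlated at -0.099. With 2 libraries in each group, that value cannot show whether samples were paired. With the replicate block there were 1224 calls in place of 1576, 2 members higher as before, 9 list genes higher in place of 13 and 0 lower in place of 1. Under the block the further dehydrogenases had 1 rise in place of 3 (Aldh6a1 adjusted p = 0.0513, Aldh3b1 0.0543), the retinoid list 5 in place of 6 and the kynurenine list 0 in place of 1 (Kmo 0.0645), and Ptgr1 was not called (0.0620). A left-out library leaves 1 sample in an arm, which is assumed to vary like the other group. Counts of Adh4 and Aldh8a1, from 37 to 92, limit what could be detected for them.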
